A study of Mus musculus with 65 samples.

Results

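The 4 genes described here, Pecam1, Icam2, Clec1a and Tgfbr2, code for surface proteins best known from blood vessel endothelium. They were chosen by name, as the rows of these 4 genes among the 18036 gene identifiers of a single-cell RNA-seq table, of which 6826 had a count in any cell. The cells were single long-term hematopoietic stem cells (HSC), 65 in all, from the marrow of mice older than 20 months that carried SCL-tTA and H2B-GFP. In this system a transactivator under SCL, a gene of blood stem cells and of endothelium, drives a histone-GFP label that dilutes with each division once it is switched off. The sort in both groups took CD150+ CD48- cells with little or no CD34 and no Flk2 from the Sca-1+ Kit+ part of marrow depleted of mature lineages. The 37 label-retaining cells were GFP positive and the 28 non-label-retaining cells GFP negative. The comparison is therefore between stem cells that kept the label and stem cells without it. How often a cell had divided is inferred from the label alone. Both groups were kept overnight without growth factors at 3% oxygen before cDNA was made by the SMART-Seq v4 method. They came from 4 biological repeats, which in order gave 9, 9, 10 and 9 cells of the GFP-positive kind and 8, 4, 6 and 10 of the GFP-negative kind. How many mice stood behind a repeat is not given in the labels, so p-values measure the spread between repeats, whatever its source.

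PECAM-1 (CD31), the product of Pecam1, is an immunoglobulin-family adhesion and inhibitory receptor that binds itself on neighbouring cells and recruits phosphatases to its tail. ICAM-2 is a ligand of the leukocyte integrin LFA-1 on resting endothelium. CLEC1A is a C-type lectin receptor of endothelial and some myeloid cells, and the type II TGF-beta receptor, coded by Tgfbr2, binds the ligand and then activates the type I receptor kinase that passes the signal to SMAD proteins. Hematopoietic stem cells share an embryonic origin with endothelium and express some of its genes, and TGF-beta signalling is known as a pathway that holds them in quiescence.

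Pecam1 (identifier 18613) lies on chromosome 11 from 106654213 to 106715281 and Icam2 (15896) on the same chromosome from 106377656 to 106388139 (GRCm38). Clec1a (243653) lies on chromosome 6 from 129426684 to 129452000 and Tgfbr2 (21813) on chromosome 9 from 116087695 to 116175363. Clec1a overlaps its neighbour Clec12b by 951 bases, and Clec12b had a count in 1 cell. Tgfbr2 shares 4426 bases with the noncoding gene Gm31292, which was not analysed here. The library method does not mark the strand, so reads from such overlaps cannot be assigned to one gene. Each count belongs to a whole gene, so exonic and intronic reads are not told apart.

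The promoter of Tgfbr2 is shown because ETS-family factors are known regulators of endothelial and blood stem cell genes. Capitals mark the match to an ETS core, searched as CGGAAG or AGGAAG on both strands, in the 250 bases before the RefSeq start (GRCm38.p6, chr9:116175364-116175613, minus strand, printed 5′ to 3′).
Tgfbr2: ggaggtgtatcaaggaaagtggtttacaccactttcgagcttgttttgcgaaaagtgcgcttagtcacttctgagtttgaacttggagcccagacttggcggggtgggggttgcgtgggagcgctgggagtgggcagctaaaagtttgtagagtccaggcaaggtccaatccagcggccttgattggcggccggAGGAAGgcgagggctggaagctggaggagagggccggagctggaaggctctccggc
The match begins 56 bases before the start, and 39.2% of 32851 promoters of this length held an ETS match. The GATA core AGATAA (9.99% of promoters), the RUNX core TGTGGT (14.0%) and the SP1 core GGGCGG (32.7%) were not found in this window on either strand. Of the 4 genes, Tgfbr2 is the member with an entry in the promoter table used.

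The total count of a label-retaining cell had a median of 264894 and a range of 27954 to 20516069. For non-label-retaining cells the median was 118056 and the range 86 to 661078, and 4 cells, all non-label-retaining, had fewer than 10000. Label-retaining cells held on average 28.2% of all genes with any count and non-label-retaining cells 16.0%. By surface phenotype the cells are CD150 positive, yet Slamf1, which codes for CD150, was at 0 in all 65 cells. The stem cell transcription factor gene Hlf had a count in 31 label-retaining and 12 non-label-retaining cells.

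Several libraries had nearly the same expression profile as another one, and the 4 genes followed. Across the 2080 pairs of cells the median correlation of log2 profiles was 0.309 and the 95th percentile 0.462. Label-retaining cells 20, 21 and 22 of repeat 3 correlated at 0.953 to 0.98 with each other, and their Pecam1 counts were 301, 421 and 192, those of Clec1a 172, 194 and 126, and those of Tgfbr2 43, 34 and 18. Label-retaining cell 23 of the same repeat correlated at 0.834 with cell 22 and had 5, 6 and 3 counts of these genes. One such pair crossed the groups: non-label-retaining cell 3 correlated at 0.923 with label-retaining cell 3, the deepest library, which had 4168 counts of Pecam1 and 3455 of Tgfbr2. Non-label-retaining cell 3 held 1.66% as many counts in total, with 46 of Pecam1 (1.1%) and 81 of Tgfbr2 (2.34%). Non-label-retaining cells 13 and 14 of repeat 3 correlated at 0.862 and had no count of the 4 genes. All 16 pairs at 0.7 or more lay within a repeat, and 10 of them had library index numbers that differed by 1. Low counts tended to stand in repeats that also held a high one: of the 31 counts under 10 of the 4 genes, 29 (93.5%) had a cell with 100 or more counts of the same gene elsewhere in the repeat, against 52.1% of the 190 zeros. For all genes in 10 or more cells the shares were 55.9 and 40.5%, and for Pecam1 alone both were 100%. Whether reads or material were shared between libraries was not tested, and a low count is therefore given as a count in the library, with counts of 10 or more beside it. Results are given with all cells and again without the 5 cells that correlated at 0.8 or more with a deeper one.

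Pecam1 was the most widely detected of the 4 genes. It had a count in 20 of 37 label-retaining cells (54.1%, exact binomial 95% interval 36.9 to 70.5%) and in 6 of 28 non-label-retaining cells (21.4%, 8.3 to 41.0%). These intervals cover counting error only. In repeats 1 to 4 the label-retaining share was 88.9, 11.1, 70.0 and 44.4% and the non-label-retaining share 62.5, 25.0, 0 and 0%. In 3 of 4 repeats the label-retaining share was thus the higher one, in repeat 2 it was the lower one, and the groups overlapped. The means over repeats were 53.6% ± 33.7 and 21.9% ± 29.5 (SD, n = 4), a difference of 31.7 percentage points that did not pass the test (exact permutation p = 0.229, two-sided, where 0.0286 is the smallest possible). Without the 5 like-profile cells 17 of 34 and 5 of 26 cells had a count, and the difference was 29.9 points (exact permutation p = 0.257).

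The raw counts of Pecam1 were mostly larger in label-retaining cells, which were also sequenced more deeply. In the 20 label-retaining cells with a count the lowest was 2, the median 105 and the highest 4168. In the 6 non-label-retaining cells the lowest was 1, the median 3 and the highest 46. The median total of the cells with Pecam1 was 528037 and 65358 counts, and scaled to 1000000 counts of each cell the median of Pecam1 was 167 in the first group and 52.3 in the second. Counts of 10 or more stood in 13 label-retaining cells, spread over all 4 repeats, and in 1 non-label-retaining cell, which was cell 3 with the profile of the deepest library. Without the like-profile cells the numbers were 11 and 0. The difference in the share of cells with 10 or more counts was 31.6 points (exact permutation p = 0.0571).

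**Figure D1:**
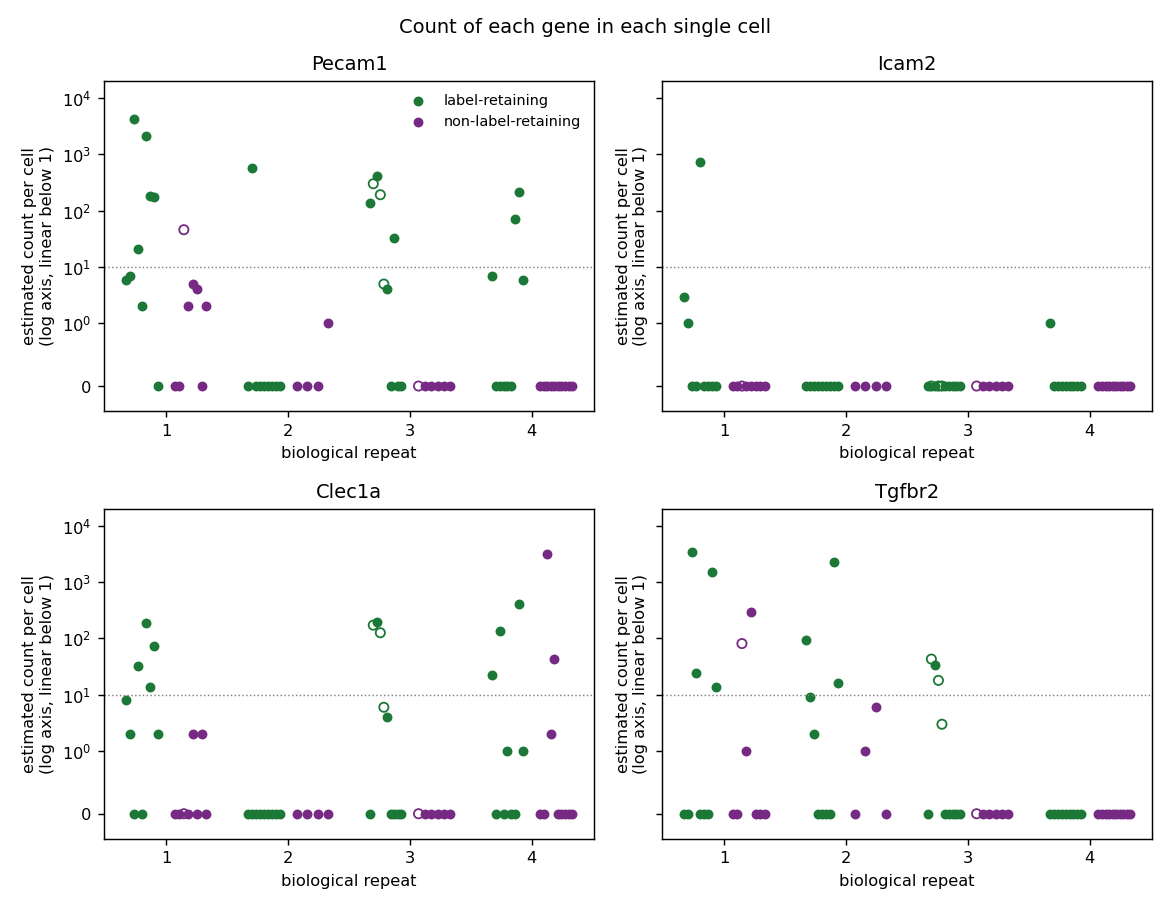
Estimated count of Pecam1, Icam2, Clec1a and Tgfbr2 (vertical, log axis that is linear below 1) in each of the 65 cells, by biological repeat (horizontal), with label-retaining cells in green and non-label-retaining cells in purple. Open circles are the 5 cells whose profile correlated at 0.8 or more with a deeper cell, and the dotted line marks 10 counts, which 13 label-retaining cells reached for Pecam1.

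Icam2 was rare. Its count was 3 in label-retaining cell 1, 1 in cell 2 and 731 in cell 5, all of repeat 1, and 1 in cell 29 of repeat 4. Cell 5 thus held 99.3% of the 736 counts of this gene. No non-label-retaining cell had a count, and 0 of 28 cells allows a share of up to 10.7% (3 cells of 28) or, by the exact binomial 95% interval, up to 12.3%. The label-retaining share was 10.8% (4 of 37, 3.03 to 25.4%), so the intervals overlapped. The repeat shares were 33.3, 0, 0 and 11.1% in label-retaining cells against 0% in each repeat of the others (difference 11.1 points, exact permutation p = 0.429). The 4 cells were not among the like-profile cells.

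Clec1a was detected in 17 of 37 label-retaining cells (45.9%, 29.5 to 63.1%) and in 5 of 28 non-label-retaining cells (17.9%, 6.06 to 36.9%). By repeat the label-retaining shares were 77.8, 0, 50 and 55.6% and the non-label-retaining shares 25.0, 0, 0 and 30.0%. The label-retaining share was the higher one in 3 of 4 repeats, and repeat 2 had no cell with Clec1a in either group. The means were 45.8% ± 32.8 and 13.8% ± 16.0 (SD, n = 4), a difference of 32.1 points (exact permutation p = 0.171). Leaving out label-retaining repeat 2 alone, with its share of 0%, moved the difference to 47.4 points (exact permutation p = 0.0286), past the threshold before adjustment. Leaving out repeat 2 in both groups gave 42.8 points (exact permutation p = 0.1). Each p is the smallest possible with the repeats left. Without the like-profile cells 14 of 34 and 5 of 26 cells had a count, a difference of 25.8 points (exact permutation p = 0.371).

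One non-label-retaining cell held most of the Clec1a counts. Label-retaining cells with a count had from 1 to 408 counts with a median of 22, and 10 of them had 10 or more. Of the 5 non-label-retaining cells, 3 had 2 counts each, cell 23 had 43.5 and cell 21 had 3085.7. Cell 21 of repeat 4 therefore held 98.4% of the non-label-retaining counts of Clec1a, at 13100 for each 1000000 counts of that cell, against at most 793 on this scale in a label-retaining cell. The median of the cells with Clec1a on this scale was 62.0 where the label was kept and 474 where it was lost. This order is the reverse of that of the raw counts. The 474 is the value of cell 22 without the label, which had 2 counts of Clec1a in a total of 4220. A median set by so low a count in a shallow library is not read as a difference in level. Cell 21 had no count of Pecam1, Icam2 or Tgfbr2.

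Tgfbr2 was detected in 13 of 37 label-retaining cells (35.1%, 20.2 to 52.5%) and in 5 of 28 non-label-retaining cells (17.9%, 6.06 to 36.9%). The shares by repeat were 44.4, 55.6, 40.0 and 0% in cells that kept the label, against 37.5, 50, 0 and 0% in cells without it. Repeat 4 had no cell with Tgfbr2 in either group, and in repeats 1 and 2 the groups were close. The means were 35.0% ± 24.2 and 21.9% ± 25.8 (SD, n = 4), a difference of 13.1 points (exact permutation p = 0.486). It was 8.93 points without the like-profile cells, with 10 of 34 and 4 of 26 cells (exact permutation p = 0.657). Counts ran from 2 to 3455 with a median of 24 in label-retaining cells and from 1 to 296 with a median of 6 in the others, and 10 and 2 cells had at least 10. Scaled to 1000000 counts of each cell the medians lay the other way. They were 38.1 in cells with Tgfbr2 that kept the label and 59.0 in those that did not, and the highest values were 624 and 3300. The 59.0 is the value of cell 4 without the label, which had 1 count of Tgfbr2 in a total of 16946. The order of these medians is therefore not read as a difference in level.

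**Figure D2:**
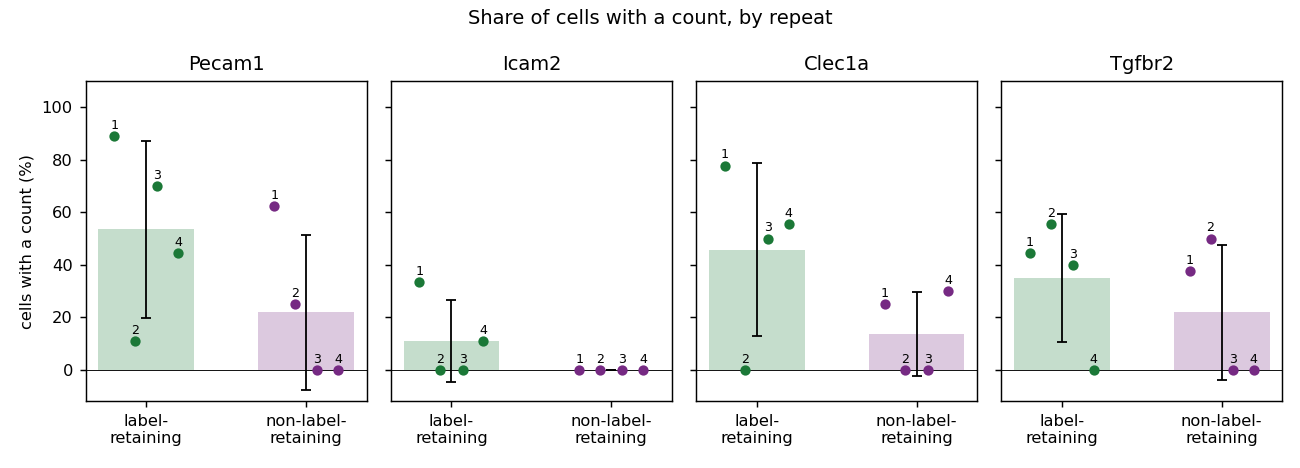
Share of cells with a count of each gene (vertical, percent) in label-retaining (green) and non-label-retaining (purple) cells. Points are the 4 repeats with their numbers, bars the mean over repeats and black lines the SD, and for Pecam1 the points run from 11.1 to 88.9% in label-retaining cells and from 0 to 62.5% in the others.

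These differences have to be read against those of all genes, since nearly every gene was seen in more label-retaining cells. Of 3489 genes with a count in at least 10 cells, 93.4% had the larger mean share in label-retaining cells, with a median difference of 19.4 points. An unadjusted exact p under 0.05 with a larger share in label-retaining cells was reached by 296 of them (8.48%), and a smaller share by 0, and none passed Benjamini-Hochberg adjustment (smallest adjusted exact permutation p 0.337). Pecam1, Clec1a and Tgfbr2 were tested, and 0 of the 3 reached an unadjusted p under 0.05 (adjusted exact permutation p = 0.525, 0.469 and 0.66). Icam2, in 4 cells, was too rare for this test. Among the 609 genes found in a number of cells within 3 of that of Pecam1, the median difference was 22.9 points, and 25.8% had a difference at least as large as Pecam1. The corresponding values were 21.8 points and 19.9% for Clec1a (764 genes) and 20.0 points and 67.8% for Tgfbr2 (891 genes).

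**Figure D3:**
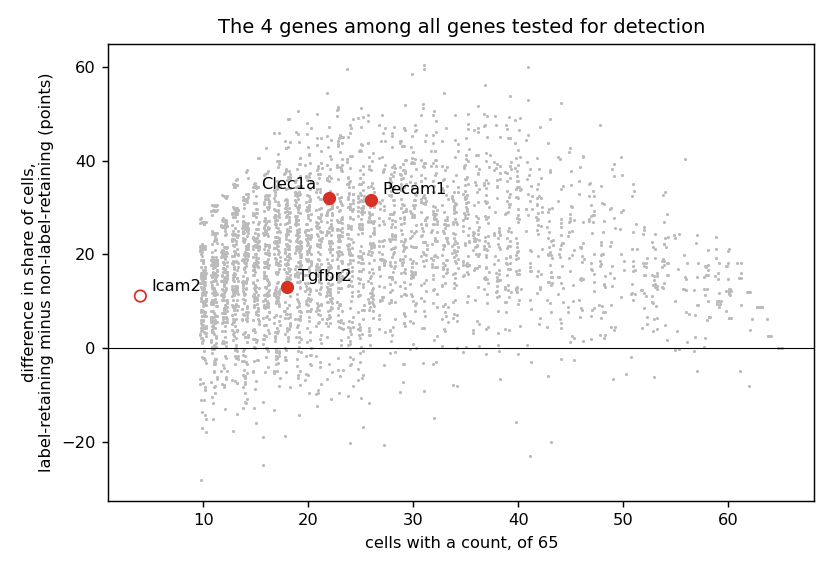
Difference in the mean share of cells with a count, label-retaining minus non-label-retaining (vertical, percentage points), against the number of the 65 cells with a count (horizontal) for 3489 genes in grey and for the 4 named genes in red. Pecam1 (31.7) and Clec1a (32.1) lie in the upper part of the cloud and Tgfbr2 (13.1) in its middle or below, and the open circle is Icam2, which was not tested.

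Among label-retaining cells those with these genes held more genes in all. Label-retaining cells with Pecam1 held a median of 2620.5 genes and those without it 1258, and the medians were 2595 and 1380.5 for Clec1a, 2468 and 1483.5 for Tgfbr2 and 2441 and 1817 for Icam2. Among non-label-retaining cells the medians with and without the gene were 1367 and 894 for Pecam1, 1385 and 869 for Tgfbr2 and 952 and 971 for Clec1a. Non-label-retaining cells with Pecam1 were the shallower ones, with a median total of 65358 against 144519 counts. When every cell was thinned to 10000 counts, which left out 4 shallow non-label-retaining cells, the expected share of cells with Pecam1 was 36.2% ± 20.2 and 12.2% ± 17.2 (exact permutation p = 0.143). For Clec1a it was 24.2% ± 16.4 and 7.56% ± 11.9 (exact permutation p = 0.171), and for Icam2 4.86% and 0%. The shares of Tgfbr2 drew together, to 16.7% ± 13.2 and 14.0% ± 17.4 (exact permutation p = 0.914, SD, n = 4 throughout).

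Levels were compared on sums of counts, 1 sum for the cells of a group in a repeat, as CPM, the count for each 1000000 of the scaled total of the tested genes. Pecam1 stood at 102.0, 30.55, 259.8 and 133.9 CPM in the label-retaining sums of repeats 1 to 4 against 39.39, 3.935, 0 and 0 CPM for the non-label-retaining ones. The label-retaining sum was the higher one in 4 of 4 repeats, but the lowest of them lay below the highest of the others. In repeat 2 each sum came from 1 cell, with 563 counts in the label-retaining and 1 count in the non-label-retaining one. The fitted log2 difference was 3.55 ± 2.31 (SE) and did not pass the test (edgeR quasi-likelihood test, adjusted p = 0.511). Label-retaining cell 3 held 48.2% of the label-retaining Pecam1 counts, and without this cell the log2 difference was 3.53. With the repeat as a block it was 5.15 (edgeR, unadjusted p = 0.0416, adjusted p = 0.594).

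Clec1a stood at 4.9, 0, 119.2 and 250.6 CPM in the label-retaining sums against 2.671, 0, 0 and 8253 CPM for the non-label-retaining ones, so that the order was reversed in repeat 4. The log2 difference was -4.46 ± 2.59 (edgeR, adjusted p = 0.485). It rested on non-label-retaining cell 21: without this library it was 1.44 (edgeR, adjusted p = 0.739), without the non-label-retaining sum of repeat 4 it was 6.28 (0.606) and without repeat 4 in both groups it was 4.93. The block for repeat gave 0.88 (0.936).

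Tgfbr2 stood at 75.94, 128.1, 23.27 and 0 CPM in the label-retaining sums against 252.4, 27.55, 0 and 0 CPM for the non-label-retaining ones. The log2 difference was -0.31 ± 2.12 (edgeR, adjusted p = 0.929), with the label-retaining sum higher in 2 of 4 repeats. Its sign turned with 1 library: non-label-retaining cell 5 held 76.9% of the counts of that group, and without it the difference was 1.28 (edgeR, adjusted p = 0.771). It was 2.67 without the non-label-retaining sum of repeat 1, 2.5 without repeat 1 and 1.92 with the repeat as a block, and -1.72 without the like-profile cells.

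**Figure D4:**
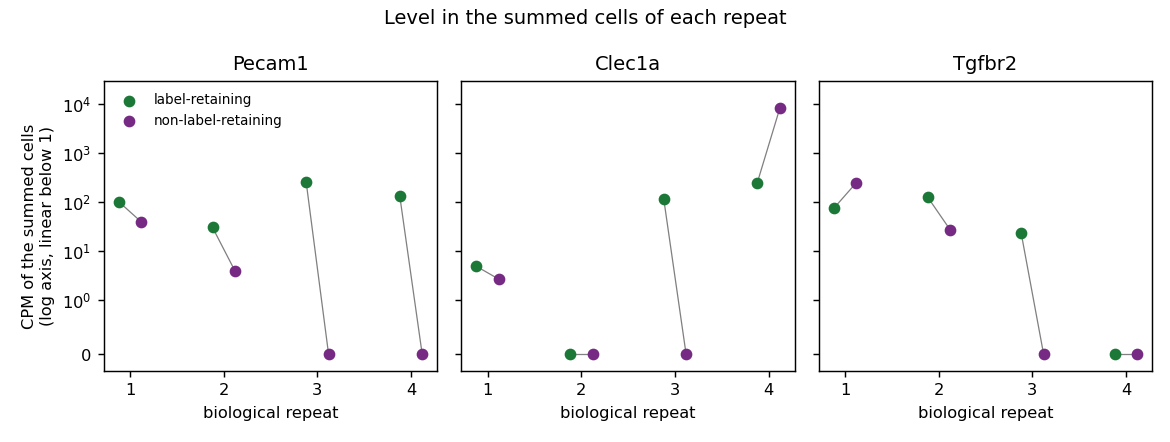
Level of Pecam1, Clec1a and Tgfbr2 in the summed cells of each repeat (vertical, CPM on a log axis that is linear below 1), with label-retaining sums in green, non-label-retaining sums in purple and a line joining the sums of a repeat (horizontal). Pecam1 was the higher in label-retaining sums in 4 of 4 repeats, with 1 cell behind each sum in repeat 2. The Clec1a value of 8253 CPM in repeat 4 came almost wholly from 1 cell.

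Across all 2786 genes tested for level, edgeR called 0 (0% at an adjusted p under 0.05, smallest adjusted p 0.326), and 0 of the 3 genes tested here. At an unadjusted p under 0.05, 180 genes (6.46%) were higher and 122 (4.38%) lower in label-retaining sums, and none of the 3 was among them. DESeq2 called 11 genes. Pecam1 and Tgfbr2 were not among these, and Clec1a was given no p by that tool. The median log2 difference of all genes was 1.15 with the TMM scaling used, 1.78 with total counts and 0.63 with DESeq2 size factors. Relative to that median Pecam1 lay 2.4, 1.88 and 2.32 higher, Clec1a at -5.61, -3.53 and -5.63, and Tgfbr2 at -1.46, -1.86 and -1.57. The TMM factors were 0.29 and 0.22 for the non-label-retaining sums of repeats 3 and 4 and 1.44 to 2.04 for the others, which raises CPM in those 2 sums.

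The 4 genes were seen together in single cells to different degrees, but no cell had counts of all 4. Among label-retaining cells 10 had none of them, 9 had 1, 9 had 2 and 9 had 3. Among non-label-retaining cells the numbers were 16, 9, 2 and 1. Without the like-profile cells they were 10, 9, 9 and 6 for label-retaining and 15, 9, 1 and 1 for non-label-retaining cells. At least 1 of the 4 was present in 27 of 37 (73.0%) and 12 of 28 (42.9%) cells, and with at least 10 counts in 20 and 4 cells. The number of the 4 genes in a cell went along with the number of genes detected in all: label-retaining cells with 0, 1, 2 and 3 of them held a median of 1077, 1372, 2573 and 2695 genes. The part of this in the co-detection was not tested.

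Pecam1 and Clec1a were the most frequent pair. Of the 20 label-retaining cells with Pecam1 14 also had Clec1a (70.0%), against 3 of the 17 without Pecam1 (17.6%). Without the like-profile cells it was 11 of 17 with and 3 of 17 without Pecam1. With all cells and at least 10 counts of each, 8 of 13 cells with Pecam1 had Clec1a and 2 of 24 without. Label-retaining cells 20, 21 and 22, whose profiles were nearly the same, were among these 8. All 4 cells with Icam2 had Pecam1, 3 of them had Clec1a, and none had Tgfbr2. Tgfbr2 was found in 8 of the 20 cells with Pecam1 and in 5 of the 17 without. When the like-profile cells were left out it was found in 5 of 17 with and 5 of 17 without Pecam1. Among non-label-retaining cells 1 of the 6 with Pecam1 had Clec1a and 3 had Tgfbr2. Over all 65 cells the phi coefficient of detection, a correlation of presence and absence, was 0.41 for Pecam1 and Clec1a, 0.27 for Pecam1 and Tgfbr2 and 0.14 for Clec1a and Tgfbr2. Without the like-profile cells these values were 0.37, 0.15 and 0.05. For Icam2 it was 0.31 with Pecam1, 0.22 with Clec1a and -0.16 with Tgfbr2, and 0.35, 0.25 and -0.15 without those cells. These coefficients describe cells that share repeats and depth.

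**Figure D5:**
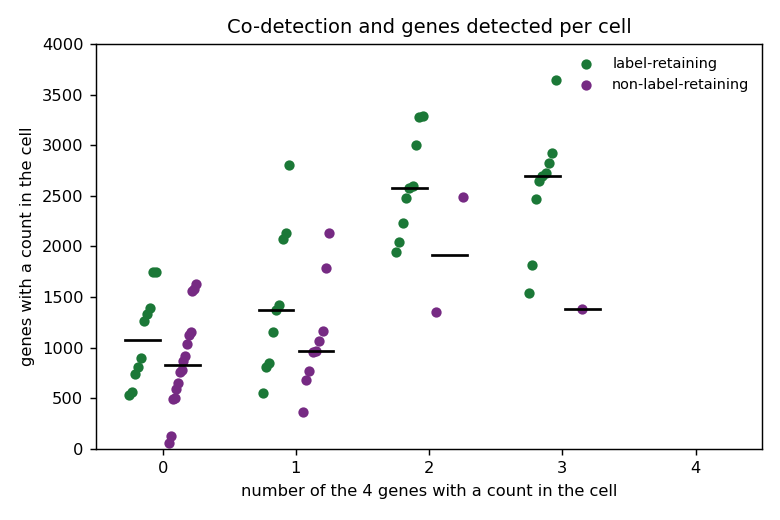
Genes with a count in the cell (vertical) against the number of Pecam1, Icam2, Clec1a and Tgfbr2 with a count in it (horizontal), for label-retaining (green) and non-label-retaining (purple) cells, with the median of each set as a black line. The medians of label-retaining cells rise from 1077 genes with none of the 4 to 2695 with 3, and no cell has all 4.

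For each member the 3 genes with the most similar presence over the 65 cells were listed. For Pecam1 these were the splicing gene Snrnp27 (phi 0.77), Gpbp1 (0.68) and the reticulon gene Rtn4 (0.67), where the median over 3457 genes was 0.3. For Clec1a they were Eapp (0.65), Vat1 (0.61) and the proteasome activator gene Psme4 (0.6), with a median of 0.19. For Tgfbr2 they were Serinc5 (0.69), the transcription factor subunit gene Gtf2e2 (0.65) and the phosphatase gene Mtmr3 (0.62), with a median of 0.21. For Icam2 Mbd1, Nedd1 and Mybbp1a each stood at 0.57, a value that rests on 4 cells.

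Defining markers of endothelial cells took a very small share of the counts, although 13 of the 37 GFP-positive and 3 of the 28 GFP-negative cells had a count of at least 1 of them. Of 17 such genes 8 were in the table, Sox17 and Sele among them at 0 in every cell. Cdh5, Kdr, Emcn, Plvap and Cldn5 were among those absent from it, so the share of counts does not include them. The scavenger receptor gene Stab2 had a count in 9 label-retaining and 3 non-label-retaining cells (10 counts or more in 1 and 1), the phosphatase gene Ptprb in 4 and 0, and Flt1, Flt4, Clec14a and Ecscr in 1 and 0 each. Their summed share of a cell's counts, as a mean over the cells of a repeat, was 0 to 0.00321% in label-retaining and 0 to 0.00401% in non-label-retaining cells. At least 1 of these markers had a count in 12 of the 20 label-retaining cells with Pecam1 and in 1 of the 17 without. The numbers were 7 of 17 and 6 of 20 for Clec1a, 4 of 13 and 9 of 24 for Tgfbr2 and 2 of 4 and 11 of 33 for Icam2. Among non-label-retaining cells they were 2 of 6 and 1 of 22 for Pecam1, 0 of 5 and 3 of 23 for Clec1a and 2 of 5 and 1 of 23 for Tgfbr2. Label-retaining cells with Pecam1 also held more genes in all (median 2620.5 against 1258), and the part of this was not tested. The part of vessel cells in the values of the 4 genes was not tested.

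Platelets and leukocytes also carry some of these surface proteins, so markers of other blood cells were counted. The table held 10 of the 16 megakaryocyte and platelet genes listed, 6 of 12 for monocytes and 7 of 13 for neutrophils. For B cells it held 7 of 12, for T and NK cells 8 of 14. Of the erythroid genes 6 of 13 were in it and of the stromal genes 8 of 12. At least 1 gene of the megakaryocyte and platelet list had a count in 30 of the 37 GFP-positive and 13 of the 28 GFP-negative cells. Of its genes Itgb3 was seen in 30 and 9 cells (exact permutation p = 0.0286, adjusted 0.337), Vwf in 16 and 8 and Itga2b in 11 and 2, while Gp1ba, Gp6, Gp9, Treml1 and Clec1b were at 0. Of these Vwf is also on the endothelial list and Itgb3 among the PECAM-1 partners. The monocyte gene Cd68 was seen in 7 and 0 cells and Lyz2 in 3 and 0, with Csf1r and Adgre1 at 0. The B cell gene Cd22 was seen in 23 and 11 cells and Cd79a in 8 and 3, and the T cell gene Cd8a in 2 and 1, with Cd4 at 0. The neutrophil list was led by Cxcr2 (37 and 22 cells), with Elane and Mpo at 0, and the stromal list by Col1a2 (18 and 11), with Cxcl12 at 0. Of the erythroid genes Hba-a1 was seen in 36 and 24 cells, Hbb-bs in 31 and 24 and Hba-a2 in 12 and 14. Of the 3 tested 1, Hba-a1, had the larger mean share in label-retaining cells. As means over the cells of a repeat, erythroid genes took 0.143 to 9.37% of counts in label-retaining cells. In non-label-retaining cells they took 0.386 to 3.18%.

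A wider list of endothelial surface and regulator genes, the 4 members included, had 59 genes. Of these 21 were in the table, 18 had a count and 9 were tested for detection. Genes absent from the table are not counted as 0. All 9, Pecam1, Clec1a and Tgfbr2 among them, had the larger share in label-retaining cells, as did 93.4% of all genes. The median difference was 19.8 points against 19.4 for all genes. An unadjusted exact permutation p under 0.05 was reached by 0 of the 9, against 8.48% of all genes. Myct1, which marks endothelium and stem cells, was seen in 31 label-retaining and 10 non-label-retaining cells, the junction gene F11r in 25 and 12, the transcription factor gene Gata2 in 24 and 10, and Vwf, which codes for von Willebrand factor, in 16 and 8.

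Of the 49 genes listed for the TGF-beta pathway 19 were in the table and 17 had a count. Tested were 10 of these 17, Tgfbr2 among them. Of the 10, 9 had the larger share in label-retaining cells (median difference 24.0 points). Over all 3489 genes 93.4% did, with a median of 19.4 points, and 8.48% reached the unadjusted threshold, as 1 of these 10 did. Ltbp3, which codes for a protein that binds latent TGF-beta, had a count in 16 cells that kept the label and 2 that did not (exact permutation p = 0.0286, adjusted 0.337). The ligand gene Tgfb1 was seen in 17 and 3 cells, the mediator gene Smad4 in 16 and 4, the inhibitor gene Smad7 in 24 and 10, Tgif1, a repressor of SMAD targets, in 20 and 5, and the ubiquitin ligase gene Smurf2 in 13 and 7. None of the 10 passed adjustment.

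The list of ligands and partners of PECAM-1 and ICAM-2, which includes Pecam1 and Icam2, had 31 genes, 18 of them in the table. Tested were 10 genes, Pecam1 among them. All 10 had the larger share in label-retaining cells (median difference 26.6 points, against 93.4% and 19.4 points over all genes). The unadjusted threshold was reached by 1 of the 10, against 8.48% of all genes. The integrin gene Itgb3, whose product pairs into the vitronectin and fibrinogen receptors, was seen in 30 and 9 cells (exact permutation p = 0.0286, adjusted 0.337). Inpp5d, which codes for the lipid phosphatase SHIP-1, was seen in 30 and 12 cells, Ctnnb1, which codes for beta-catenin, in 33 and 18, and Itgam, which codes for the alpha chain of the integrin Mac-1, in 25 and 11. Of the 30 C-type lectin receptor genes listed 27 were in the table and 3 were tested. Of the 3, 2 had the larger share in label-retaining cells, against 93.4% of all genes. They were Clec1a and Clec4a2 (18 and 9 cells), while Mgl2 was seen in 4 and 6. The list of stem cell genes had 31 genes, of which 13 were in the table and 8 were tested. All 8 had the larger share in label-retaining cells (median difference 29.9 points, against 93.4% and 19.4 points over all genes). An unadjusted p under 0.05 was reached by 0 of them, against 8.48% of all genes.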

How the data were processed

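The deposited table holds estimated counts for each gene in each cell, which the authors made on the mm10 build and with DESeq per the submitters' processing notes. The aligner and the counter were not given in the sources used here, nor was the gene annotation. Totals per cell differ by orders of magnitude and a median of 74.7% of values between 0.5 and 20 were whole within 0.0001, so the counts were treated as not normalized. The reads carry no molecular identifiers. Of 18036 identifiers 16216 (89.9%) matched RefSeq symbols (GRCm38.p6).

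The members and gene lists were chosen with earlier results of these data known. Cells are not replicates. Shares of cells with a count were compared between 4 and 4 repeats by the two-sided exact permutation test over 70 splits, for each gene in at least 10 cells, with Benjamini-Hochberg adjustment over all (Python 3.11.15, numpy 2.4.6). For levels, expected counts were summed per repeat and group, rounded and tested with edgeR (4.0.16, R 4.3.3, TMM, robust quasi-likelihood fit) on genes with a mean of at least 10 counts per cell over the 8 sums' means and a count in at least 10 cells, at a threshold of 0.05. DESeq2 (1.42.0) was an alternative. Thinned shares are expectations at 10000 counts. Profile correlations used log2(CPM + 1). The tests were tested on simulated data.

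Named genes were the 4 members, the 3 genes most like each in detection, and the most often detected members of each list (up to 6 for each of 5 pathway lists, up to 4 for each of 8 marker lists). Samples with the same repeat number deviated together (correlations of deviations 0.55, 0.29, 0.17 and 0.16 for repeats 1 to 4), and the series names the numbers as biological repeats, so the repeat was also fitted as a block. Alternatives are described in the closing section.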

Additional observations from a re-analysis of the deposited data

Results flagged for a closer look

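In 3 of the 14 sets of 4 repeat values examined, 1 repeat lay far from the other 3. The set of Icam2 in non-label-retaining cells was all 0. All 3 flagged sets are levels in the non-label-retaining sums, and each holds values of 0. For normally distributed values chance gives about 1 in 20, a rate that need not hold for such sets. Clec1a stood at 8253 CPM in repeat 4 and at no more than 2.671 CPM in the others. Tgfbr2 stood at 252.4 CPM and Pecam1 at 39.39 CPM in repeat 1. Each of these sums drew most of its counts from 1 cell, cells 21, 5 and 3 of the non-label-retaining group.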

How the results depend on the processing

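The difference in the share of cells stayed positive under the 19 alternatives run for each gene. It ran from 19.0 to 46.9 points for Pecam1, 16.7 to 47.4 for Clec1a and 2.66 to 24.8 for Tgfbr2. For Icam2 it was 2.78 to 14.8, a sign that could not turn since no non-label-retaining cell had a count. A positive difference was also the rule over all genes tested for detection, 93.4% of which had it with all cells. Leaving out repeats gave 21.4 to 47.4 points for Clec1a, the upper value, without label-retaining repeat 2, being the 1 that passed an unadjusted exact permutation p of 0.05 (p = 0.0286). With the replicate block, exact sign flips gave p = 0.25 for Pecam1, Clec1a and Tgfbr2 and 0.5 for Icam2, where 0.125 is the smallest possible, and the block changed no call in level.

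The level of Pecam1 stayed positive under all 22 alternatives (log2 difference 2.32 to 6.98). That of Clec1a turned from -4.46 to 0.88 with the replicate block and to 1.44 without non-label-retaining cell 21, and leave-outs of repeats gave -5.11 to 6.28. That of Tgfbr2 turned from -0.31 to 1.92 with the replicate block, 1.28 without non-label-retaining cell 5 and 0.14 with no filter on low counts, and leave-outs gave -1.35 to 2.67. Apart from the named cells and repeats, the cause was not tested.

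Genes with a larger share in label-retaining cells at an unadjusted exact p under 0.05 fell from 296 to 161 after thinning, and those with a smaller share rose from 0 to 4, or to 1 without the like-profile cells. DESeq2 called 11 genes in level (smallest adjusted p 6.44e-05), edgeR 0. Alternatives without the like-profile cells, or without cell 21 or 5, were chosen after seeing the data. With 4 cells Icam2 was not tested across genes.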
